A study of Mus musculus with 12 samples.

Results

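Birc3 and Rhbdd3 are 2 mouse genes whose proteins act on ubiquitin in signalling to NF-kB. They were followed through the exon bins that carry their names in 6 deposited tables. An exon bin is a non-overlapping piece of the exons of a gene model. Rows were taken where the gene column read Birc3 or Rhbdd3, or where the row name had the same prefix, and repeated rows were dropped. This gave 26 bins of 926, with 13 bins in each gene, and 2 gene models of 58.

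The study mixed sequencing reads by computer so that the origin and amount of the reads of chosen transcripts were known. All RNA came from D1, given in the labels as a mouse cell line, and the backgrounds were poly(A)-selected Illumina TruSeq libraries prepared without strand information. Each of the 12 samples held 5 paired-end replicates of a background made from 1000 ng or from 100 ng of total RNA. Reads of listed transcripts were added from a source of 20M, 40M or 80M reads (M, 1e6 reads), made either with the NuGENv2 kit from 2 ng of RNA or with TruSeq from 100 ng. Kit and RNA input of the added reads changed together, so they cannot be told apart. A difference by kit below is one of kit and input.

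The 6 tables are 1 for each kit and depth, each with 5 columns per background. Every sample also received synthetic, uniformly spread reads of other transcripts. Both genes were on the list of kit reads for the 100 ng background and on no other list: the Birc3 transcript was uc009oda.1, in a model of 4 transcripts, and the Rhbdd3 transcript was uc007hwe.1, in a model of 5. The 1000 ng background therefore holds both genes at the level of its library alone. Nothing in the sources used here says whether the 5 replicates came from separate cultures, so p-values measure only the spread between these columns, which may be technical.

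Signalling to NF-kB is switched on and off by chains of ubiquitin that ligases attach to receptor complexes and other proteins remove or read. Birc3, also known as cIAP2, is an inhibitor of apoptosis protein with a RING ubiquitin ligase domain. It ubiquitinates RIPK1 downstream of the TNF receptor and, with TRAF proteins, promotes the turnover of the kinase NIK (Map3k14), and its own gene is an NF-kB target. Rhbdd3 belongs to the rhomboid family and carries a ubiquitin-associated domain. In dendritic cells it has been described as a brake on NF-kB that binds ubiquitin on NEMO (Ikbkg) and recruits the deubiquitinase A20 (Tnfaip3).

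Birc3 lies on the minus strand of chromosome 9 from 7848699 to 7873186 (NCBIM37, the sequence of mm9; GENCODE gene ENSMUSG00000032000.10). Its bins are numbered along the chromosome, so E001 is the 3′ end and E013 the 5′ end of the gene. Bin lengths placed 10 of 13 bins on exon parts of that annotation, and E001, E004 and E006 were not placed. The coding exons E002, E003 and E005 are shown because the added reads treated these neighbours differently. E002, of 42 bases, is printed with 20 intronic bases on each side, at chr9:7849652-7849733 on the minus strand, and its exonic bases are in capitals. E003 at chr9:7850920-7851171 and E005 at chr9:7854367-7854606, both on the minus strand, are wholly coding and are printed without capitals.
Birc3 E002: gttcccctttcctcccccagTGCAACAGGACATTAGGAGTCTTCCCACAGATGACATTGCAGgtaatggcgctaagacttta
Birc3 E003: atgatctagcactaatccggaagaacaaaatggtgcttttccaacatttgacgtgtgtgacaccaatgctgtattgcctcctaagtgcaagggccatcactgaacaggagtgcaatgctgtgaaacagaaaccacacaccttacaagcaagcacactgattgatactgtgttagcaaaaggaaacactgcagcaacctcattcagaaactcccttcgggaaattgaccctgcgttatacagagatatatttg
Birc3 E005: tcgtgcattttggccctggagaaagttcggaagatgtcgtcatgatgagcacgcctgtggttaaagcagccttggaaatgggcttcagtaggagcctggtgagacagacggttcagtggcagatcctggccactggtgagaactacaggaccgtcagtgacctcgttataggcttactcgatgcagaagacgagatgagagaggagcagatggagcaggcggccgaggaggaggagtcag

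Rhbdd3 lies on the plus strand of chromosome 11 from 4998929 to 5006096 (NCBIM37; ENSMUSG00000034175.7), and E013 is its last exon. Here too 10 of 13 bins were placed, and E001, E002 and E003 were not. One exon is cut into 3 bins by alternative splice sites: E009 is a 4-base start used by part of the transcripts, E010 a shared stretch of 129 bases, and E011 a 34-base extension of the 3′ end. That exon is shown because it gained reads from 1 kit and not from the other. It is printed at chr11:5005164-5005370 on the plus strand with 20 intronic bases on each side, and the capitals mark E009 and E011.
Rhbdd3 E009 to E011: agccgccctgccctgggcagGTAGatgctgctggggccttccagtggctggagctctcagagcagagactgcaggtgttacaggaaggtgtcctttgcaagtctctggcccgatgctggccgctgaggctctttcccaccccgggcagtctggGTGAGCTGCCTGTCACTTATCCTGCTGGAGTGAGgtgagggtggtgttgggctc

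A replicate of the 1000 ng background had 347941 to 593002 reads over all bins. One of the 100 ng background had 237258 to 492142 outside the TruSeq table at 20M. In that table the 100 ng sample stood apart, with 1101798 to 1281559 reads and with more reads than the NuGENv2 table at 20M in 916 of 923 bins, among them 12 of 13 Birc3 bins and 13 of 13 Rhbdd3 bins, so results from it are given apart below. Of 10 dendritic cell markers only Sirpa and Mgl2 were among the 58 models, both on the same list of added reads, and 0 of 6 markers of other cells were present, so the tables hold too few markers to check the cell type. Of 51 genes of NF-kB signalling and ubiquitin only Rnf130, a RING finger ubiquitin ligase, had a model besides the members. Rnf130 was on the list of synthetic reads. Its total passed the limma test (Benjamini-Hochberg) in 1 table of 6, the TruSeq table at 20M. The log2 fold change (100 ng minus 1000 ng) was -0.996, with adjusted p = 0.0083. There 46 of 58 models were called, 25 as higher and 21 as lower in the 100 ng background. Before scaling, Rnf130 held more reads in that 100 ng sample, 17810 to 25155 against 3897 to 12090 at 1000 ng. The cause of the opposite sign after scaling was not tested.

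In the 1000 ng background, Birc3 held 430, 823, 422, 436 and 337 reads in replicates 1 to 5, the same in all 6 tables. In the 100 ng background with the fewest added reads, the NuGENv2 table at 20M, it held 231, 248, 591, 478 and 256. Rhbdd3 held 196, 460, 211, 212 and 171 reads in the 1000 ng background, again the same in all tables, and 158, 138, 383, 326 and 118 in the 100 ng background of that table. The backgrounds overlapped in reads for both genes. Reads given here and by bin below are not scaled for depth, which differed between columns. Replicate 2 was the deepest column of the 1000 ng background. Each of the 26 bins kept its reads in the 1000 ng background across the 6 tables, replicate by replicate.

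Between tables the 100 ng background gained a fixed number of reads per bin, equal in the 4 replicates whose columns hold whole reads per length. In the fifth replicate, equality rests on the inferred library total, because that total was fitted on the assumption of an equal gain. Gains are therefore exact differences between tables with no spread over replicates, and none was tested. Intervals on shares of gained reads are exact binomial (Clopper-Pearson, 95%) and cover counting error only. The sources used here do not say whether a read was counted in more than 1 bin. The intervals take each count as a separate read and would be too narrow if reads were counted more than once.

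Birc3 gained almost nothing from the NuGENv2 source at first and then much. It gained 6 reads from 20M to 40M and 155 from 40M to 80M, so its totals at 80M were 392, 409, 752, 639 and 417. From the TruSeq source it gained 185 reads from 40M to 80M and ended at 627, 644, 987, 874 and 652. The TruSeq totals at 80M lay above the 1000 ng totals of all replicates but the second, at 823.

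Rhbdd3 followed another course. It gained 18 reads from 20M to 40M of NuGENv2 reads and 14 from 40M to 80M, and its totals at 80M were 190, 170, 415, 358 and 150. TruSeq gave it 140 reads from 40M to 80M, and its totals at 80M were 405, 385, 630, 573 and 365. Of the NuGENv2 totals at 80M, 3 of 5 lay within the 1000 ng range of 171 to 460 and the others below it. With 80M TruSeq reads the lowest replicate, at 365, lay above 4 of the 5 replicates of the 1000 ng background.

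The pair stood at opposite ends of 11 ranked models in how their gains followed the NuGENv2 source. Among the 11 models that were listed for the 100 ng background only and gained reads in both NuGENv2 steps, the gain from 40M to 80M divided by that from 20M to 40M had a median of 1.91. Birc3 had the highest ratio, 25.8, and Rhbdd3 the lowest, 0.778. Dhps, listed in the same way, gained 0 reads in the first step and 54 in the second. It has no ratio and is not ranked, so a late gain was not particular to Birc3. In kit comparison they sat at the ends too: the TruSeq gain from 40M to 80M divided by the NuGENv2 gain over the same step was 1.19 in Birc3, the lowest of 12 models, and 10 in Rhbdd3, the highest, with a median of 3.95. The models next to them were close, Dhps at 1.41 and Nono at 9.44. Some denominators are small, 6 reads for the first ratio of Birc3 and 18 and 14 for the ratios of Rhbdd3, and each kit and depth is 1 draw of reads. The NuGENv2 gain from 40M to 80M is divided in the first ratio and divides in the second. The 2 rankings are therefore not independent.

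**Figure D1:**
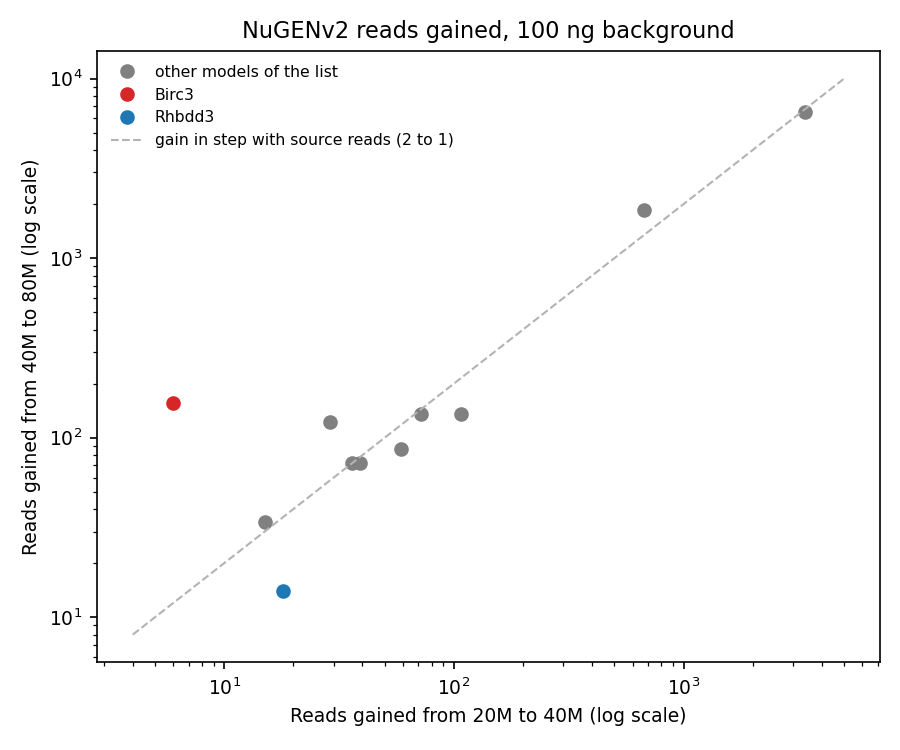
Reads gained by each model in the 100 ng background from 20M to 40M (x axis) and from 40M to 80M (y axis) of NuGENv2 source reads, both on log scales; points are 11 gene models on the list of added reads, and the dashed line marks a second gain of 2 times the first. Birc3 (6 and 155 reads) lies far above the line and Rhbdd3 (18 and 14 reads) below it. Dhps (0 and 54 reads) is not shown.

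The reads that Birc3 gained lay at its 3′ end with both kits. Below, 1000 ng and 100 ng stand for the 2 backgrounds. E001, the 3′-most bin of 756 bases, held 70, 121, 65, 88 and 61 reads at 1000 ng and 64, 59, 88, 108 and 55 at 100 ng with 20M of NuGENv2. It rose to 167, 162, 191, 211 and 158 reads with 80M NuGENv2 reads and to 270, 265, 294, 314 and 261 with 80M TruSeq reads. Both sets lie wholly above the 1000 ng replicates.

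E003, the coding exon printed above, held 64, 97, 68, 70 and 41 reads at 1000 ng and 29, 29, 83, 48 and 30 at 100 ng with 20M of NuGENv2. It reached 84, 84, 138, 103 and 85 with 80M NuGENv2 reads and 150, 150, 204, 169 and 151 with 80M TruSeq reads. Before scaling, the NuGENv2 reads overlap the 1000 ng range and the TruSeq reads do not. The overlap rests on replicate 2 at 1000 ng, with 97 reads.

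Between these bins, E002 held 18, 29, 14, 15 and 9 reads at 1000 ng and 6, 11, 18, 16 and 7 in the 100 ng background. It gained 1 read from the NuGENv2 source up to 80M and 0 of 185 from the TruSeq source, which allows a share of up to 1.62% by a limit of 3 counts, or 1.97% by the exact interval. The 42 bases in capitals above thus stayed at the level of the library while its neighbours E001 and E003 gained 85 and 63 reads from TruSeq. E002 had 0.244 ± 0.043 reads per read of E003 in the 1000 ng background (SD, n = 5) and 0.069 ± 0.024 in the 100 ng background with 80M TruSeq reads. The ranges, 0.206 to 0.299 and 0.040 to 0.095, do not overlap. E003 gained the same reads in every replicate, so the SD at 100 ng reflects only the background reads. This pair of bins was chosen after its values were seen. Which exons the added transcript contains was not analysed here.

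The kits differed upstream of E003. E004 gained 1 read and E005 gained 1 read from NuGENv2 between 20M and 80M, against 20 and 17 from TruSeq between 40M and 80M. Together they took 1.24% of the 161 NuGENv2 reads (0.151% to 4.42%) and 20.0% of the 185 TruSeq reads (14.5% to 26.5%), intervals that do not overlap. E001 took 64.0% of the NuGENv2 reads (56.0% to 71.4%) and 45.9% of the TruSeq reads (38.6% to 53.4%), also without overlap. From the NuGENv2 table at 20M to the TruSeq table at 40M, E001 took 57.3% of 211 reads (50.4% to 64.1%), which overlaps both. E004 and E005 took 15.2% in that comparison (10.6% to 20.7%), again above their NuGENv2 interval. The share of E003 was alike in its estimate, 34.2% (26.9% to 42.0%) and 34.1% (27.3% to 41.4%). The grouping of E004 with E005 was made after the gains were seen.

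The 5′ bins of Birc3, E006 to E013, gained 0 reads in every step other than those into the TruSeq table at 20M. E010, an exon part of 945 coding bases, held the most reads of any Birc3 bin with 20M of NuGENv2, 138, 297, 132, 141 and 105 in the 1000 ng background and 67, 80, 222, 138 and 78 in the 100 ng background, and the same reads at 80M with either kit. The balance of the gene shifted with this. Reads in E001 per read in E010 were 0.522 ± 0.084 in the 1000 ng background and 0.715 ± 0.203 at 100 ng with 20M of NuGENv2, which overlap. With 80M reads they were 1.79 ± 0.62 for NuGENv2 and 2.86 ± 1.06 for TruSeq (SD, n = 5), above the 1000 ng range of 0.407 to 0.624 in every replicate. E001 gained the same reads in every replicate and E010 gained 0. The rise within the 100 ng background thus follows from the addition, and its SD reflects only the background reads of each replicate.

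**Figure D2:**
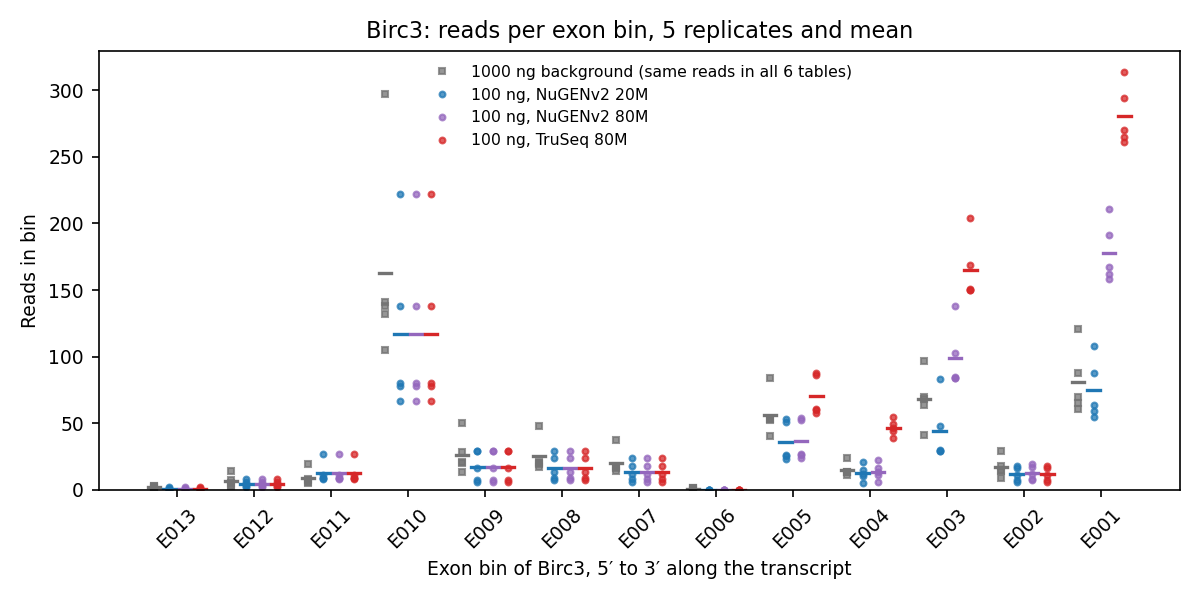
Reads in each Birc3 exon bin (y axis) in 5′ to 3′ order (x axis); points are the 5 replicates and lines their means, for the 1000 ng background and for the 100 ng background with 20M NuGENv2, 80M NuGENv2 and 80M TruSeq reads. E001 and E003 climb with added reads, E004 and E005 with TruSeq reads, and E002 and E006 to E013 stay at the level of the background.

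Rhbdd3 gained at its 3′ end with NuGENv2 and over most of the gene with TruSeq. E013, the last exon, held 23, 50, 27, 17 and 21 reads at 1000 ng and 26, 24, 57, 42 and 20 at 100 ng with 20M of NuGENv2. It rose to 49, 47, 80, 65 and 43 with 80M NuGENv2 reads and to 71, 69, 102, 87 and 65 with 80M TruSeq reads. Before scaling, only the TruSeq reads lie above all 1000 ng replicates. The NuGENv2 reads at 80M lie above all of them but replicate 2, with 50 reads.

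E008, a coding exon of 384 bases, held 29, 81, 21, 30 and 27 reads at 1000 ng and 25, 30, 54, 57 and 17 at 100 ng with 20M of NuGENv2. It gained 2 reads from NuGENv2 up to 80M and reached 101, 106, 130, 133 and 93 with 80M TruSeq reads, above all 1000 ng replicates. E012, a coding exon of 285 bases, held 27, 82, 49, 35 and 40 reads in the 1000 ng background, 32, 32, 74, 59 and 24 with 80M NuGENv2 reads and 76, 76, 118, 103 and 68 with 80M TruSeq reads. Before scaling, its TruSeq reads overlap the 1000 ng range only through replicate 2, with 82 reads.

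The exon printed above in 3 bins gained 0 of the 32 NuGENv2 reads, which allows a share of up to 9.38% by a limit of 3 counts, or 10.9% by the exact interval. It gained 28 of the 140 TruSeq reads, or 20.0% (13.7% to 27.6%). Over the step from 40M to 80M alone it gained 0 of 14 NuGENv2 reads, for which the exact interval reaches 23.2% and overlaps that of TruSeq. By bin, the TruSeq gain from 40M to 80M was 3 reads in E009, 15 in E010 and 10 in E011. E010 held 16, 37, 21, 28 and 16 reads at 1000 ng and 35, 39, 66, 57 and 40 in the 100 ng background with 80M TruSeq reads. E011, the extension, held 11, 27, 17, 17 and 10 and reached 23, 24, 48, 32 and 27. In both bins the highest 1000 ng replicate, replicate 2, lay above the lowest 100 ng one before scaling. E009 has 4 bases, so a read over it also covers its neighbours, and its level per length is not comparable with that of a longer bin.

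E013 took 71.9% of the NuGENv2 reads gained between 20M and 80M (53.3% to 86.3%). It took 21.4% of the TruSeq reads gained between 40M and 80M (14.9% to 29.2%), an interval that does not overlap the first. From 40M to 80M alone the NuGENv2 share of E013 was 71.4% of 14 reads (41.9% to 91.6%), also above the TruSeq interval. E005 to E008 took 9.38% (1.98% to 25.02%) and 33.6% (25.8% to 42.0%). These intervals do not overlap, but over the step from 40M to 80M alone the NuGENv2 share was 2 of 14 reads, 14.3% (1.78% to 42.8%), which overlaps the TruSeq share. From the NuGENv2 table at 20M to the TruSeq table at 40M, Rhbdd3 gained 107 reads. E013 took 14.0% of them (8.06% to 22.1%), below both NuGENv2 intervals. E005 to E008 took 53.3% (43.4% to 63.0%), above the TruSeq share from 40M to 80M without overlap. Shares thus also differed between amounts of TruSeq reads. These groups of bins were formed after the gains were seen. The NuGENv2 intervals are wide because they rest on 32 reads.

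At the 5′ end, E001, E002 and E003 gained 0 reads in every step other than that into the TruSeq table at 20M, and so did E006, a noncoding exon of 37 bases. E005, the bin before E006, gained 1 read from NuGENv2 and 6 from TruSeq, and E007, the bin after it, gained 0 and 8. E006 held 4, 18, 9, 2 and 3 reads at 1000 ng and 7, 3, 16, 10 and 1 in the 100 ng background in those tables. E004, of 12 bases, held 1 read more in the TruSeq tables at 40M and 80M than in the NuGENv2 tables.

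**Figure D3:**
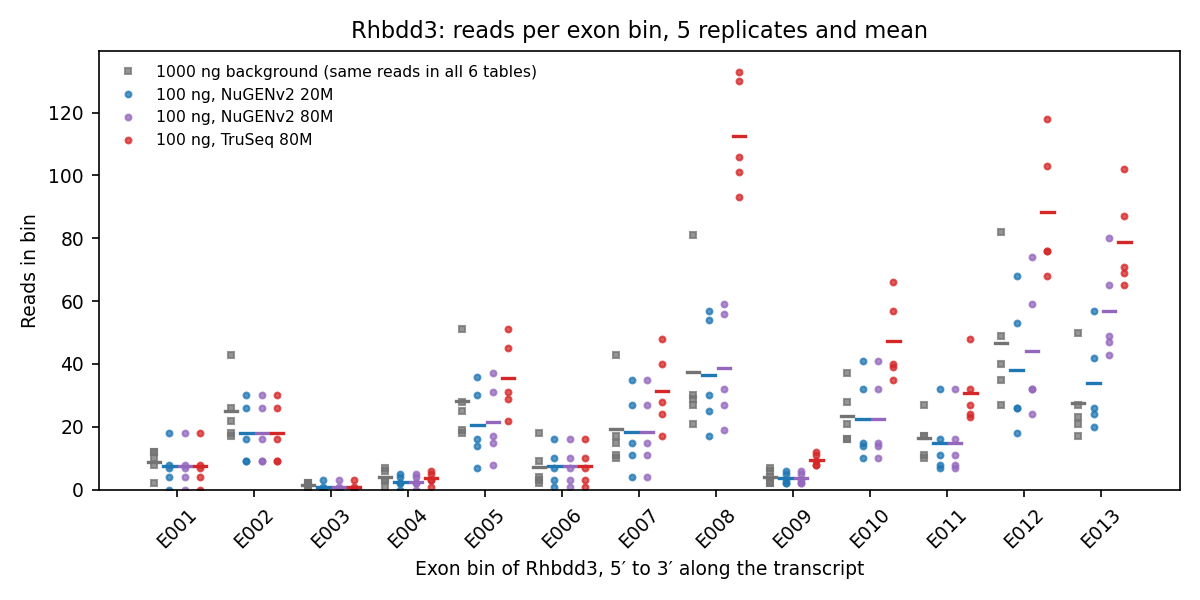
Reads in each Rhbdd3 exon bin (y axis) in 5′ to 3′ order (x axis); points are the 5 replicates and lines their means, for the 1000 ng background and for the 100 ng background with 20M NuGENv2, 80M NuGENv2 and 80M TruSeq reads. TruSeq reads raise E005 and E007 to E013, NuGENv2 reads raise mainly E013, and E001 to E003 and E006 stay at the level of the background.

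**Figure D4:**
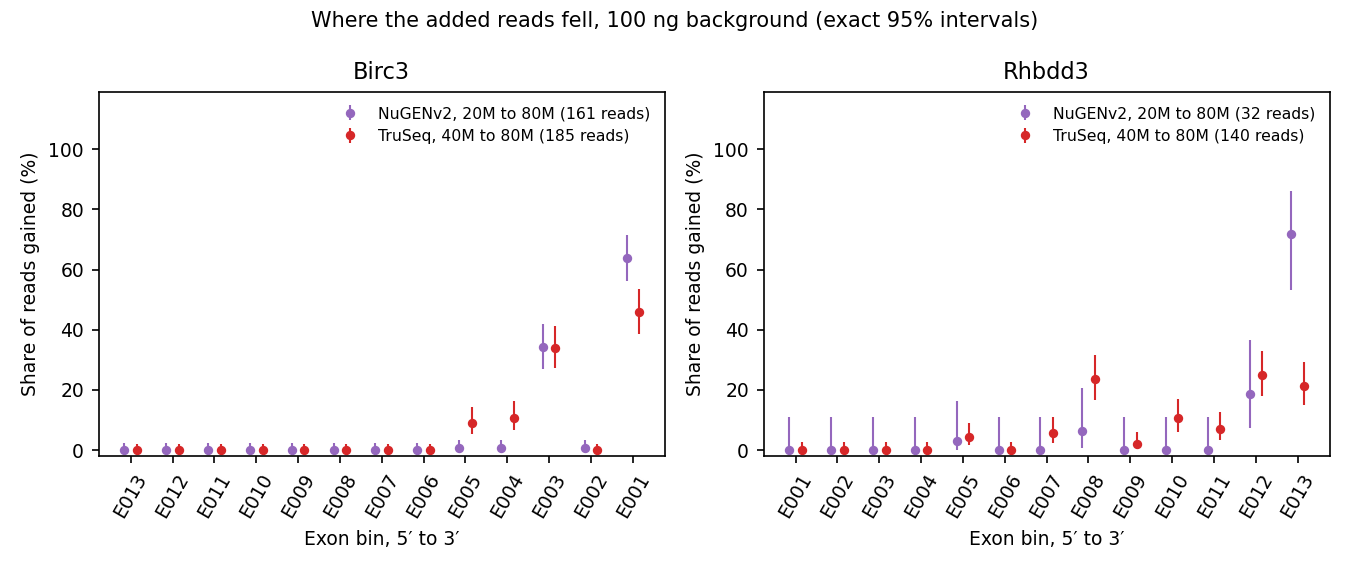
Share of the reads gained by each gene (y axis, percent) that fell in each exon bin (x axis, 5′ to 3′) in the 100 ng background, for NuGENv2 from 20M to 80M and TruSeq from 40M to 80M; bars are exact 95% binomial intervals. In Birc3, E001 takes 64.0% and 45.9%, and in Rhbdd3, E013 takes 71.9% and 21.4%.

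Backgrounds were then compared on values scaled for bin length and library (FPKM equivalents, reads per kilobase and 1e6 reads), with limma on log2(value + 1), 5 against 5 within each table. Log2 fold changes are the 100 ng minus the 1000 ng background and understate changes of low values. Because every replicate of the 100 ng background holds the same added reads, the spread between replicates is that of the backgrounds, not of the addition. The 1000 ng values shift between tables only through the scaling.

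For the Birc3 total, the 1000 ng background measured 4.67, 5.04, 5.07, 4.63 and 4.48 FPKM equivalents in the NuGENv2 table at 20M and the 100 ng background 3.86, 4.60, 4.87, 4.59 and 4.71. These overlapped, and the log2 fold change was -0.07 ± 0.06 (SE) with adjusted p = 0.56 (limma, Benjamini-Hochberg). At 40M it was -0.05 ± 0.06 with adjusted p = 0.69. At 80M the 100 ng background measured 6.70, 7.60, 6.54, 6.42 and 7.66 against 4.88, 5.39, 5.26, 4.85 and 4.65, with no overlap, and Birc3 was higher by 0.41 ± 0.06 with adjusted p = 0.00087. The call thus appeared between 40M and 80M, the step in which the gene gained 155 reads.

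With TruSeq reads the Birc3 total measured 7.52, 8.49, 6.93, 6.89 and 8.56 in the 100 ng background at 40M, against 4.93, 5.49, 5.34, 4.93 and 4.72. At 80M it measured 10.7, 11.9, 8.70, 8.91 and 11.9 against 5.05, 5.72, 5.44, 5.04 and 4.76. Neither pair overlapped, and the log2 fold changes were 0.51 ± 0.07 (adjusted p = 0.00032) and 0.87 ± 0.10 (adjusted p = 4.7e-05, both limma).

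For the Rhbdd3 total, the NuGENv2 table at 20M gave 3.83, 5.06, 4.56, 4.05 and 4.09 in the 1000 ng background and 4.75, 4.60, 5.68, 5.63 and 3.90 in the 100 ng background, with a log2 fold change of 0.15 ± 0.10 (adjusted p = 0.43, limma). At 80M it gave 3.998, 5.42, 4.72, 4.24 and 4.24 against 5.84, 5.68, 6.49, 6.46 and 4.95. The backgrounds still overlapped there, since replicate 5 of the 100 ng background lay below replicate 2 of the 1000 ng background. The log2 fold change at 80M was 0.32 ± 0.09 and passed the test (adjusted p = 0.028, limma), but the call was lost in 8 of 10 fits that each left out 1 replicate, with adjusted p up to 0.071 (all but those without replicate 2 at 1000 ng or replicate 5 at 100 ng), and with the replicate number as a block (adjusted p = 0.066). At 40M it was 0.25 ± 0.09 with adjusted p = 0.083, which fell under the threshold without replicate 2 of the 1000 ng background (adjusted p = 0.030) and without replicate 5 of the 100 ng background (adjusted p = 0.038).

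TruSeq reads separated the Rhbdd3 backgrounds. At 40M the 100 ng background measured 8.10, 8.15, 7.61, 7.78 and 7.42 FPKM equivalents against 4.04, 5.51, 4.80, 4.31 and 4.30. At 80M it measured 12.4, 12.8, 9.98, 10.5 and 12.0 against 4.14, 5.75, 4.89, 4.401 and 4.34. There was no overlap in either table, and the log2 fold changes were 0.66 ± 0.07 (adjusted p = 6.5e-05) and 1.14 ± 0.10 (adjusted p = 8.1e-06, both limma).

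The calls of the totals varied with the scaling. On the values as deposited no total of either gene was called, and the direction turned for Birc3 with 80M NuGENv2 reads (-0.019) and 40M TruSeq reads (-0.0042) and for Rhbdd3 in the 3 NuGENv2 tables (-0.034, -0.024 and -0.016). Without the fifth 100 ng column the unscaled totals were called in no table but the TruSeq table at 20M, where 47 of 57 models were called higher. With columns scaled by total reads the directions held and the log2 fold changes were near those above, at 0.42 and 0.48 for Birc3 and 0.33 and 0.64 for Rhbdd3 with 80M NuGENv2 and 40M TruSeq reads, but these calls were lost (limma adjusted p from 0.13 to 0.62). With the total taken as the sum of bin values, an alternative chosen after seeing the data, the Birc3 fold change was 0.12 with 80M NuGENv2, 0.12 with 20M TruSeq and 0.19 with 40M TruSeq reads and that of Rhbdd3 0.18 with 80M NuGENv2 reads, none of them called.

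**Figure D5:**
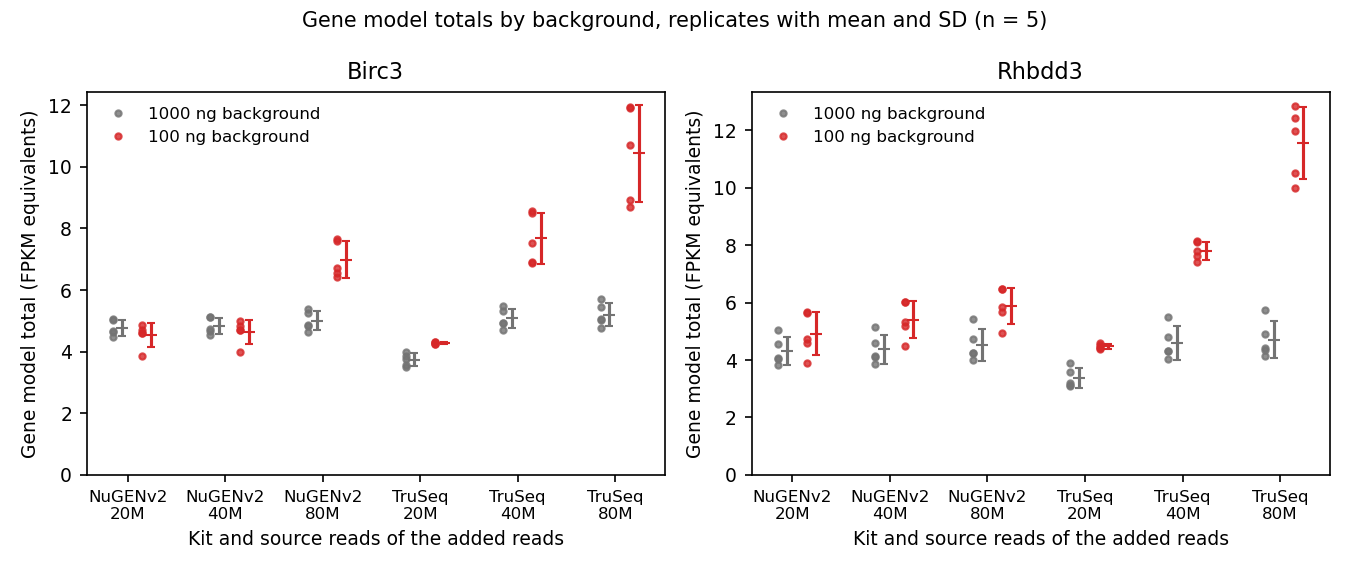
Gene model totals of Birc3 and Rhbdd3 (y axis, FPKM equivalents) in the 6 tables (x axis, kit and depth of the added reads); points are the 5 replicates of each background, with the mean and SD beside them. The 100 ng replicates of Birc3 stand above the 1000 ng ones from 80M NuGENv2 on, and those of Rhbdd3 in the TruSeq tables.

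Against all 58 models, the share called higher in the 100 ng background was 3.45%, 13.8% and 19.0% in the NuGENv2 tables at 20M, 40M and 80M and 25.9% in each of the TruSeq tables at 40M and 80M. Of the members 0, 0 and 2 of 2 were called in the NuGENv2 tables and 2 of 2 in both TruSeq tables. The other 10 models with kit reads for the 100 ng background only gave 1, 6 and 7 calls in the NuGENv2 tables and 10 in each of the TruSeq tables at 40M and 80M. Their median log2 fold change at 80M TruSeq reads was 1.04, beside 0.09 over all 58 models, 0.87 for Birc3 and 1.14 for Rhbdd3.

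The models with log2 fold changes nearest to those of Birc3 over the 6 tables were Kcnn4, Ccnh and Rhbdd3, with root mean square differences of 0.18, 0.19 and 0.21. For Rhbdd3 they were Fbf1, Kcnn4 and Birc3, with 0.15, 0.21 and 0.21. All of these are on the same list of added reads, and the comparisons share background reads.

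Among the single bins of Birc3, 0 of 13 passed in the NuGENv2 tables at 20M and 40M. By an unadjusted limma p under 0.05, 1 and 2 bins were higher in the 100 ng background there and 2 and 2 in the 1000 ng background, beside 164 and 189 of all 922 bins in either direction. The exact permutation test with Benjamini-Hochberg adjustment called 0 of all 922 bins in these tables. Its smallest p for 5 against 5 is 0.0079 before adjustment, so it can call a bin only where many of the 922 reach that floor. A count of 0 from it therefore cannot show that a bin does not differ. At 80M, 3 of 13 passed as higher: E001, E003 and E011. The shares of all 922 bins tested that were called higher in the 100 ng background in these tables were 0.759%, 2.82% and 7.16%. With TruSeq reads 4 of 13 passed at 40M, E004 being the addition, against 10.5% of all bins. At 80M 5 of 13 passed, with E005 as well, against 13.4%. With columns scaled by total reads the counts with 80M NuGENv2, 40M TruSeq and 80M TruSeq reads were 1, 2 and 3, beside 17, 33 and 69 of all 922 bins, and with the replicate block the count at 80M NuGENv2 was 1, beside 37. The exact permutation test called 0 of all 922 bins with 80M NuGENv2 and with 40M TruSeq reads.

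E001 moved most, by 1.33 ± 0.16 with 80M NuGENv2 reads (adjusted p = 0.00079, limma) and 1.91 ± 0.18 with 80M TruSeq reads (adjusted p = 5.2e-05). E003 was higher by 0.86 ± 0.15 (adjusted p = 0.0046) and 1.55 ± 0.17 (adjusted p = 0.00012) in the same tables. E004 was higher by 1.49 ± 0.15 with 80M TruSeq reads (adjusted p = 6.1e-05), and with 80M NuGENv2 reads its log2 fold change was 0.12 ± 0.13 (adjusted p = 0.69).

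At 80M, E005 lay on different sides by kit. In the NuGENv2 tables its 100 ng replicates all lay below the 1000 ng ones, at 6.25 to 7.69 against 7.80 to 9.36 FPKM equivalents at 80M, but the difference of -0.27 ± 0.09 did not pass the test (adjusted p = 0.074, limma). With 80M TruSeq reads they all lay above, at 10.8 to 15.8 against 8.02 to 9.70, and the bin was higher by 0.61 ± 0.12 (adjusted p = 0.0035). The other TruSeq tables did not pass for E005. Its log2 fold change was 0.24 ± 0.10 at 40M (adjusted p = 0.13, limma) and 0.001 ± 0.06 at 20M (adjusted p = 0.99).

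Calls also reached bins without added reads. E011, a noncoding 5′ exon part of 167 bases at chr9:7872823-7872989, held 8, 19, 5, 6 and 7 reads at 1000 ng and 9, 8, 27, 11 and 9 in the 100 ng background in all tables but the TruSeq table at 20M. Its log2 fold change moved only from 0.64 ± 0.17 with 20M NuGENv2 reads (adjusted p = 0.086, limma) to 0.59 ± 0.18 with 80M TruSeq reads (adjusted p = 0.041), and it passed at 80M NuGENv2 and in the TruSeq tables. E013, with 0 to 3 reads per replicate in these tables, passed as higher in the 1000 ng background with 80M TruSeq reads, by -0.98 ± 0.31 (adjusted p = 0.047), and for this direction the share of all bins called was 7.92%.

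Of the Rhbdd3 bins, 0 of 13 passed with 20M NuGENv2 reads. The exact permutation test called 0 of all 922 bins there, a count limited by the floor of its p given above. An unadjusted limma p under 0.05 was reached there by 1, beside 164 of all 922 bins in either direction. At 40M and 80M 1 of 13 passed, E013 in both tables, against 2.82% and 7.16% of all bins called higher. With TruSeq reads 5 of 13 passed at 40M (E008, E009, E010, E011 and E013) and 8 of 13 at 80M, with E005, E007 and E012 as well. Of all bins, 10.5% and 13.4% were called higher in these TruSeq tables. With columns scaled by total reads, 0 passed with 40M NuGENv2 reads and 2 with 40M TruSeq reads, beside 5 and 33 of all bins called higher. No Rhbdd3 bin was called higher in the 1000 ng background in any of the 6 tables, where 1.19%, 2.17% and 5.1% of all bins were in the NuGENv2 tables, 32.6% in the TruSeq table at 20M, and 6.4% and 7.92% in the TruSeq tables at 40M and 80M.

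E013 was already apart in scaled values with 20M NuGENv2 reads, at 4.29 to 5.48 FPKM equivalents in the 100 ng background against 2.10 to 3.78, though it did not pass the test (log2 fold change 0.54 ± 0.13, adjusted p = 0.060, limma). It was higher by 0.98 ± 0.13 at 40M (adjusted p = 0.0034), by 1.23 ± 0.14 at 80M (adjusted p = 0.00071) and by 1.65 ± 0.16 with 80M TruSeq reads (adjusted p = 6e-05).

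E008 had the largest log2 fold change of the gene with 80M TruSeq reads, 1.78 ± 0.18 (adjusted p = 7.3e-05, limma), against 0.36 ± 0.17 with 80M NuGENv2 reads (adjusted p = 0.23). The extension E011 was higher by 1.22 ± 0.17 and the shared stretch E010 by 1.24 ± 0.14 with 80M TruSeq reads (adjusted p = 0.00042 and 0.00012). For E006, which gained no reads, the log2 fold change was 0.25 ± 0.53 in that table (adjusted p = 0.82).

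The TruSeq table at 20M followed neither pattern. Its 100 ng sample held 2908, 2925, 3268, 3155 and 2933 Birc3 reads and 1701, 1681, 1926, 1869 and 1661 Rhbdd3 reads, which is 2677 and 1543 reads above the NuGENv2 table at 20M in every replicate. The reads lay over the whole of both genes: Birc3 E010 held 825 more reads and E001 564 more, and E002, which gained none from TruSeq between 40M and 80M, held 90 more. Birc3 E006 stayed at 0 in all 5 replicates. The share of Birc3 reads in E001 was 21.1% ± 0.64 and that in E010 31.0% ± 0.60 (SD, n = 5), beside 16.9% ± 2.22 and 32.6% ± 2.02 in the 1000 ng background.

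Of all bins 29.7%, and of all models 43.1%, were called higher in the 100 ng background of this table. There 3 of 13 Birc3 bins and 6 of 13 Rhbdd3 bins were called higher, Birc3 E013 was called higher in the 1000 ng background, and the totals were higher by 0.16 ± 0.03 and 0.33 ± 0.05 (adjusted p = 0.0014 and 0.00044, limma). The number of bins called there depended on the scaling: with columns scaled by total reads, 11 Birc3 bins and 12 Rhbdd3 bins were called higher, and the split over all bins went from 274 higher and 301 lower to 562 and 145.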

How the data were processed

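The 6 deposited tables hold 1744 rows each, 926 of them distinct, and 923 bins were used after leaving out 1 bin that was not finite and 2 without reads. The submitters' processing notes name STAR, Cuffdiff and mm9, with the way reads were counted not given in the sources used here. What was deposited is a coverage signal: in 9 of 10 columns the values fit whole reads divided by the bin length less 1, with no library scaling. Column 5 of the 100 ng samples is smaller by another divisor, taken to be a library total and inferred on the assumption that it gained the same reads as the other replicates. All values (100%) came out as whole reads within 0.001, which for the 9 columns follows from how lengths were found.

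Column size factors were medians of ratios, with the level set by that inferred total. The tests were planned for library-scaled values, and this scaling was added because the deposited signal is not scaled. Each table was fitted with limma 3.58.1 (R 4.3.3) on log2(value + 1), 5 against 5, with Benjamini-Hochberg adjustment over 922 bins or 58 models and a threshold of 0.05. A model total is all reads over the summed length. No minimum applied to bins of listed models, and other bins needed a mean of at least 1. The fit was tested on simulated data. Named genes were the members, the 3 models nearest to each, and listed genes found in the tables; bins that gained reads or passed the test got full values. Members and lists were chosen with earlier results of these data known. Gene models of the UCSC mm9 annotation were not used here; exon positions and sequences came from GENCODE vM1 and NCBIM37 by matching bin lengths. Reads over overlapping or antisense genes could not be told apart. Alternatives covered scaling, pseudocount, filter, test, replicates left out and the replicate block.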

Additional observations from a re-analysis of the deposited data

Results flagged for a closer look

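In the Birc3 total, replicate 1 of the 100 ng background lay far below the other 4 in the NuGENv2 tables at 20M, at 3.86 FPKM equivalents, and at 40M, at 3.98. Both tables hold the same background reads, so the pair is 1 observation seen in 2 tables. Of 24 groups of 5 replicates examined, 2 had such a sample, and chance gives about 1 in 20 for separate groups. The 24 groups reuse the same background reads across tables, so they are not separate and this rate is only a guide.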

How the results depend on the processing

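Of the alternative values of the gene totals, 204 kept their direction and side of the threshold, 29 lost the call, 2 gained it and 5 changed sign. On the values as deposited the Birc3 log2 fold change was -0.019 (NuGENv2 80M), -0.0042 (TruSeq 40M), 0.55 (TruSeq 20M) and 0.049 (TruSeq 80M), and that of Rhbdd3 -0.034, -0.024 and -0.016 (NuGENv2 20M, 40M and 80M) and 0.59, 0.024 and 0.095 (TruSeq 20M, 40M and 80M), none called; 0 bins of either gene were called. On the values as deposited 0 of all bins tested were called in each table. These values mix units, since the fifth 100 ng column is lower by its divisor. Without that column Birc3 gave 0.022 (NuGENv2 80M), 0.040 and 0.11 (TruSeq 40M and 80M) and Rhbdd3 0.022, 0.071 and 0.16, none called, with 0, 1 and 3 Birc3 bins and 0, 0 and 2 Rhbdd3 bins in those tables, 0 Rhbdd3 bins at NuGENv2 40M, and 12 and 13 bins at TruSeq 20M, where 717 of all 909 bins were called higher. Scaled by total reads, Birc3 gave 0.42 and 0.48 (NuGENv2 80M, TruSeq 40M) and Rhbdd3 0.33 and 0.64, not called; Birc3 bins called were 1, 2 and 3 (NuGENv2 80M, TruSeq 40M and 80M) and 11 (TruSeq 20M), and Rhbdd3 bins 0 (NuGENv2 40M), 2 (TruSeq 40M) and 12 (TruSeq 20M). Over all bins that scaling moved the split of higher and lower calls from 26 and 20 to 5 and 18 (NuGENv2 40M), from 66 and 47 to 17 and 24 (NuGENv2 80M), from 97 and 59 to 33 and 38 (TruSeq 40M) and from 124 and 73 to 69 and 72 (TruSeq 80M). With totals as sums of bin values, an alternative chosen after seeing the data, Birc3 gave 0.12 (NuGENv2 80M), 0.12 (TruSeq 20M) and 0.19 (TruSeq 40M) and Rhbdd3 0.18 (NuGENv2 80M), not called. With size factors from the 666 bins that gained no reads, also chosen after seeing the data, 10 Birc3 and 11 Rhbdd3 bins were called at TruSeq 20M, beside 461 of all 922 bins called higher, and all totals kept their call. The cause of these changes was not tested.

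The exact permutation test, whose smallest p for 5 against 5 is 0.0079 before adjustment, gave no call for Rhbdd3 at NuGENv2 80M (0.32, adjusted p = 0.061), 0 bins of Birc3 at NuGENv2 80M and TruSeq 40M, and 0 of Rhbdd3 at NuGENv2 40M, 80M and TruSeq 40M, tables in which it called 0 of all 922 bins. With that floor, a count of 0 over 922 bins cannot show that a bin does not differ. Column numbers did not pair the backgrounds: correlations of deviations ran from -0.43 to 0.49, and 1 of 5 columns correlated best with its own number. With the replicate block, the Rhbdd3 total at NuGENv2 80M (0.32) was no longer called, Birc3 bins at NuGENv2 80M fell to 1, and no other call of a total changed. Leaving out each replicate in turn gave 0.28 to 0.37 for Rhbdd3 at NuGENv2 80M, 0.22 to 0.31 at NuGENv2 40M, and 0 to 1 Birc3 bins at NuGENv2 40M, the 1 without replicate 3 of the 100 ng background. A pseudocount of 0.1 and the filters changed no call of a total. The gains were equal in the 4 replicates whose columns hold whole reads per length. In the fifth, equality was assumed when its divisor was inferred, so that column is no check. Precision is limited by depth: several bins held under 10 reads per replicate, and the NuGENv2 gain of Rhbdd3 was 32 reads.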
